A study of Mus musculus with 6 samples.

Results

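The replication-dependent histone genes that lie in 4 clusters of the mouse genome were examined in the irradiated jejunum of mice given VND3207 or its vehicle. They were taken as every non-control probe whose gene name in the scanner files begins with Hist1h, Hist2h, Hist3h or Hist4h, which gave 49 of the 36163 gene names on the array, read by 54 of its 55681 probes. By the histone type written in the symbol, 6 probes stood for the linker histone H1, 15 for H2A, 12 for H2B, 8 for H3 and 13 for H4. Of these, 39 belonged to the Hist1 cluster on chromosome 13, 10 to Hist2 on chromosome 3, 3 to Hist3 on chromosome 11 and 2 to the single gene Hist4h4 on chromosome 6.

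All 6 mice were males of the strain C57BL/6J, of an age that the labels do not give, and all received 9 Gy of radiation. VND3207, a compound known here by its code name only, had been put into the stomach of 3 of them at 100 mg/kg 0.5 h before the radiation, and the other 3 had received an equal volume of vehicle. Total RNA of the whole jejunum, taken 6 h after the radiation, was labelled with Cy3 and hybridised to 1 Agilent array per mouse. Mice that were not irradiated were not analysed here, so the values compare 2 irradiated groups.

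Histones are the proteins around which DNA is wound: pairs of H2A, H2B, H3 and H4 form the core of the nucleosome, and H1 binds the linker DNA between cores. The clustered genes are transcribed mainly in S phase, when new chromatin is assembled, and most of their mRNAs end in a short stem-loop in place of a poly(A) tail. In the small intestine, S phase is found chiefly in the dividing cells of the crypts, while the enterocytes of the villi have left the cell cycle. The labelling kit named in the labels primes from poly(A), and how far this lowers the signal of transcripts that end in the stem-loop was not tested.

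Many clustered histone genes encode the same protein with few base differences, so the probe letters decide which transcripts a spot can report. Probes sharing at least 40 bases with another member, without gaps, fell into 4 groups, of which the largest held 7 H2A probes over the last codons of the coding region. They are shown because all 7 were lower on average with VND3207 and cannot be read as 7 measurements. Each is written 5′ to 3′ as on the array, and capitals mark bases that differ from the Hist1h2ak probe at the same position.
Hist1h2ak: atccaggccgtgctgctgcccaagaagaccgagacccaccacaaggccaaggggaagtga
Hist1h2af: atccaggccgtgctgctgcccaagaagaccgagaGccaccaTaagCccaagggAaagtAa
Hist1h2ag: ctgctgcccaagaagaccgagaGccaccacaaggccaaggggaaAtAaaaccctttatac
Hist1h2ah: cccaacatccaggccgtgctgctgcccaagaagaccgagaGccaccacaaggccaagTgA
Hist1h2an: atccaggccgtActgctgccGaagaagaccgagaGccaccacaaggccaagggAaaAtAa
Hist2h2aa2: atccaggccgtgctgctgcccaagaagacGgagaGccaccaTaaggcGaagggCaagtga
Hist2h2ac: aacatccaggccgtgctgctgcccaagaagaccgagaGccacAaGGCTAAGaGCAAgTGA

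Next in size was a group of 4 H4 probes over an early part of the coding region, past the start codon. They are shown for the same reason, with capitals marking bases that differ from the Hist1h4k probe.
Hist1h4k: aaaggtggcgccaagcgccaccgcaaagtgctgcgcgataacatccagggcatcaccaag
Hist1h4c: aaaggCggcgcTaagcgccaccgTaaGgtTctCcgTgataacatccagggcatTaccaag
Hist1h4d: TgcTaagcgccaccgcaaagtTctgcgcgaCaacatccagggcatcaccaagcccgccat
Hist1h4j: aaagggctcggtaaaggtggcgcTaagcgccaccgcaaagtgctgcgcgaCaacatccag

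The probes of Hist4h4 and Hist1h4h, whose calls held in every alternative, shared fewer than 40 bases with the probe of any other member. Probes were compared with each other only, and not with the transcripts of other histone genes. Few shared bases therefore do not show that such a probe reads a single gene. The Hist4h4 probe lies in the coding region at chr6:136752681-136752740 of mm9, on the minus strand. The Hist1h4h probe lies at chr13:23622937-23622996 of mm9, on the plus strand, and reaches across the start codon. Of the latter only its last 30 bases are given, with the start codon in capitals. The Hist1h2ba probe, of a germ line H2B gene, lies in the coding region at chr13:24025811-24025870 of mm9, on the minus strand.
Hist4h4: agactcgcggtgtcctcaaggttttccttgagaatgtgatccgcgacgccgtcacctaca
Hist1h4h, bases 31 to 60: tcttcagcaagtacaccATGtctggtcgtg
Hist1h2ba: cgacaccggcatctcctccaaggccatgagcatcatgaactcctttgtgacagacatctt

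The stem-loop itself was carried by 6 of the 54 histone probes (11.1%), against 7 of all 55681 probes (0.0126%). Its 16 bases read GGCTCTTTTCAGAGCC in the probes of Hist1h3a, Hist1h3i, Hist2h2aa1 and Hist2h2bb, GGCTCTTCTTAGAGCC in that of Hist1h3g and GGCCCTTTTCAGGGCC in that of Hist1h4m. In the Hist2h2aa1 probe it begins at base 7 of 60, so that most of that probe lies past the stem-loop. Which forms of the transcripts these probes report was not tested.

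Values are log2 processed signals minus the 75th percentile of the array, so that 0 is the signal at that percentile. They compare 1 probe between mice and not 1 probe with another. To be tested, a probe had to stand well above the background of 3 or more arrays out of 6. This left 50 of the 54 histone probes, standing for 46 genes. Hist1h1d and a second Hist4h4 probe were well above background on 0 of 6 arrays, and Hist1h2bq and the pseudogene Hist3h2bb-ps on 1 of 6. No histone spot was saturated or marked as an outlier by the scanner software. Enterocyte markers were high in the vehicle group, with mean log2 signals of 8.87 for Fabp1 and 9.13 for Fabp2, both fatty acid binding proteins.

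All vehicle arrays lay on slide 1 and in scan 1, and all VND3207 arrays on slide 2 and in scan 2, so slide, scan and treatment cannot be told apart in any value below. The share of non-control spots well above background was 66.7% to 70.0% in the vehicle group and 58.8% to 61.4% in the VND3207 group. In bulk tissue, fewer cells of a type and less RNA per cell cannot be told apart either.

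Among the histone probes, 2 of 50 were higher in the mice given VND3207 and 4 of 50 lower, at a p of limma under 0.05 after Benjamini-Hochberg adjustment over 36098 probes. Over all probes tested, 0.925% were called higher and 14.6% lower. The 2 higher probes were of the H4 genes Hist4h4 and Hist1h4j. By their array names, the 4 lower ones were of the H4 genes Hist1h4h and Hist2h4, the H2A gene Hist2h2aa2 and the H2B gene Hist1h2ba. Of these, the Hist2h4 probe had passed the filter through the vehicle group alone, in which it was higher, so its place in the count is no support for a fall. The groups did not overlap, with VND3207 higher, for 5 histone probes, against 9.40% of all probes, and with VND3207 lower for 11, against 24.8%. Members came in both directions, and the median log2 difference over the 50 was -0.10, against -0.06 over all probes tested.

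Hist4h4, the H4 gene outside the 3 multigene clusters, rose, with the highest value among the 50 probes. Its log2 signal was 2.95, 2.95 and 2.56 in vehicle mice 1 to 3 and 4.05, 4.29 and 4.04 in VND3207 mice 1 to 3. Every VND3207 mouse stood above every vehicle mouse by more than the spread within either group. The difference was 1.31 (SE 0.15, adjusted p = 0.00371 by limma), a 2.47-fold rise, and it passed the threshold in all 19 alternatives, with values from 1.18 to 1.41. The other Hist4h4 probe, far downstream of the coding region, was below background on every array and gave no second reading. Whether the signal of the probe in the coding region comes from Hist4h4 alone was not tested.

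Hist1h4h, an H4 gene of the Hist1 cluster, fell. Its log2 signal was -1.53, -1.45 and -1.55 in the vehicle mice and -2.39, -2.39 and -2.54 in the VND3207 mice. The 3 values of each group lay close together and the groups were well apart. The difference was -0.93 (SE 0.10, adjusted p = 0.00306 by limma), a 1.91-fold fall. It passed the threshold in all 19 alternatives, with its smallest size, -0.49 (adjusted p = 0.0393 by limma), after each array was corrected for smooth trends with spot position, brightness and GC content. The probes of Hist4h4 and Hist1h4h, which encode the same core histone type, thus moved in opposite directions and were unlike each other. Whether the Hist1h4h signal comes from that gene alone was not tested.

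**Figure D1:**
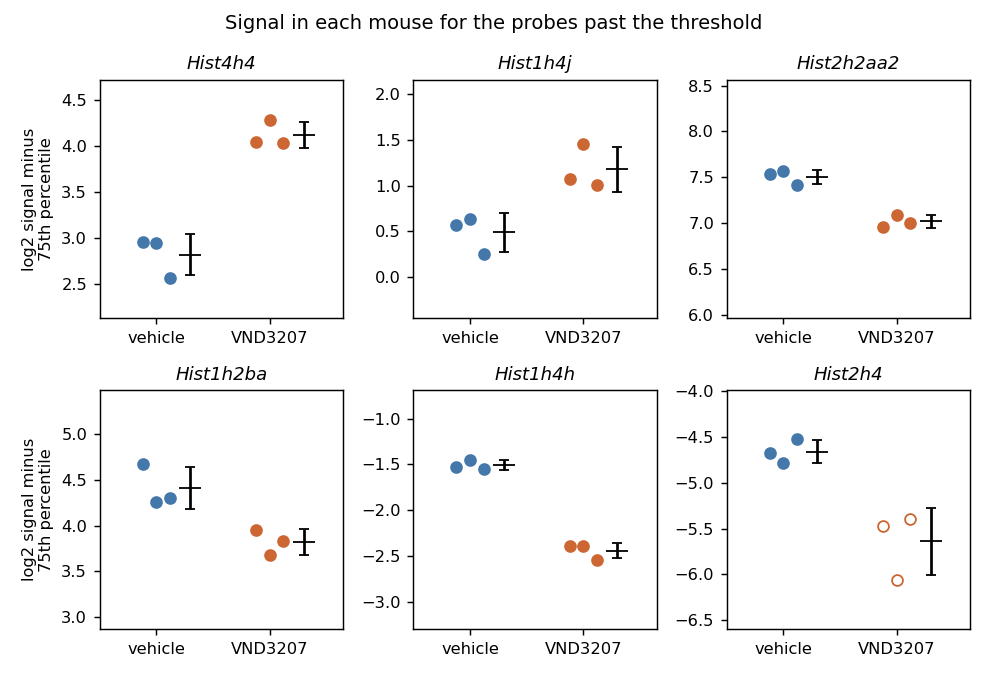
Log2 signal minus the 75th percentile of the array (vertical axis, spanning the same number of log2 units in each panel) for the 6 histone probes with an adjusted p under 0.05. Each dot is 1 mouse, open where no array of the group was well above background, and the bars give the mean ± SD (n = 3); the groups do not overlap in any panel, and only the Hist4h4 and Hist1h4j signals are higher with VND3207.

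The 4 H4 probes of the shared group shown above were all higher on average with VND3207. Hist1h4j gave log2 signals of 0.58, 0.64 and 0.25 in the vehicle mice and 1.08, 1.46 and 1.00 in the VND3207 mice, without overlap. Its difference was 0.69 (SE 0.17, adjusted p = 0.0461 by limma), and it passed in 10 of 19 alternatives. The call was lost without any 1 of the 6 arrays, with values from 0.55 to 0.78 and adjusted p from 0.0540 to 0.117.

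Hist1h4k, read by the probe shown above, gave 2.41, 2.52 and 2.02 against 2.84, 3.24 and 2.79, a difference of 0.64 (SE 0.19) that did not pass (adjusted p = 0.0767 by limma). Hist1h4c differed by 0.36 (SE 0.14, adjusted p = 0.165) and Hist1h4d by 0.36 (SE 0.20, adjusted p = 0.329). In each mouse the 4 probes deviated the same way but for Hist1h4d in vehicle mouse 2. Their median deviation from the probe's own mean was -0.20, -0.12 and -0.55 in the vehicle mice and 0.13, 0.53 and 0.11 in the VND3207 mice. Vehicle mouse 3 was thus the lowest and VND3207 mouse 2 the highest. With this much shared sequence, the 4 values are not independent readings.

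A second Hist1h4k probe, further into the coding region, differed by 0.17 (SE 0.12, adjusted p = 0.465 by limma). After the correction for trends both passed, at 0.76 (adjusted p = 0.0375) and 0.50 (adjusted p = 0.0480). Hist1h4m, read on its stem-loop, differed by 0.37 (SE 0.22, adjusted p = 0.347) and passed without VND3207 mouse 1, at 0.61 (adjusted p = 0.0380). The 2 Hist1h4i probes differed by 0.09 and -0.14 without passing. Of the 12 H4 probes tested, 8 were above 0 and the median was 0.26. This median was 0.31 with quantile normalization and 0.48 after the correction for trends.

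Hist2h4 had a dim probe, close to background, and a bright one, and they did not read the same. The dim one, over the start of the coding region, gave -4.67, -4.78 and -4.53 in the vehicle mice and -5.47, -6.06 and -5.39 in the VND3207 mice. It was well above background on 3 vehicle arrays and on 0 VND3207 arrays, and so entered the test through the vehicle group alone. Against the background limit it was at least 1.31-fold lower, with a fitted difference of -0.98 (SE 0.20, adjusted p = 0.0232 by limma). The difference shrank to -0.51 (adjusted p = 0.119) with quantile normalization and to -0.077 (adjusted p = 0.675) with normexp, another background correction. Its sign turned, to 0.22 (adjusted p = 0.451), after the correction for trends. The bright probe, over later codons, gave 5.30, 5.45 and 4.98 against 5.10, 5.29 and 5.05, which overlap, and a difference of -0.10 (SE 0.15, adjusted p = 0.746). The bright probe passed in 0 of 18 alternatives and the dim one in 7 of 15. The call was lost without any 1 of the vehicle arrays, up to an adjusted p of 0.0798, and kept without any 1 of the VND3207 arrays.

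The H2A genes were mostly a little lower with VND3207 under the 75th percentile scaling, but not with quantile normalization or after the correction for trends. Of 15 H2A probes tested, 5 were above 0, the median was -0.22, and 1 was called lower. With quantile normalization the median was 0.01 and after the correction for trends 0.09, with 11 of 15 above 0.

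Hist2h2aa2, the H2A probe called lower, gave 7.54, 7.56 and 7.42 in the vehicle mice and 6.96, 7.09 and 7.00 in the VND3207 mice, without overlap. Its difference of -0.49 (SE 0.10, adjusted p = 0.0218 by limma) passed in 10 of 19 alternatives. With normexp it was -0.52 (adjusted p = 0.0163 by limma), and after the correction for trends -0.05 (adjusted p = 0.811). Among fits that left out 1 array the call held only without vehicle mouse 3 (adjusted p = 0.0418), and the others reached up to 0.0849. The array places this probe on the plus strand at chr3:96049837-96049896 of mm9, beside the Hist2h2aa1 probe at chr3:96049949-96050008. The promoter window of Hist2h2aa2 lies on the minus strand and that of Hist2h2aa1 on the plus strand. Which of the 2 genes the called probe reads was not tested.

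All 7 H2A probes of the shared group lay below 0, from -0.49 to -0.18. Of the 7, 5 had groups that did not overlap, against 24.8% of all probes and 1880 of the 13141 brighter than the 75th percentile. As these probes share sequence, this is not a count of separate readings. Their median deviation was 0.17, 0.25 and 0.03 in the vehicle mice and -0.22, -0.02 and -0.16 in the VND3207 mice. VND3207 mouse 2 was again the highest of its group and vehicle mouse 3 the lowest. With normexp their differences ran from -0.52 to -0.19. With quantile normalization they ran from -0.24 to 0.15, and after the correction for trends from -0.05 to 0.33, with 6 of 7 above 0. H2afj, an H2A gene outside the clusters whose probe matches the Hist2h2ac probe at 45 of 50 positions, differed by -0.24 (SE 0.10, adjusted p = 0.192) and by 0.17 after the correction.

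Hist1h2ak also had a probe at the other end of the transcript, which gave 0.05 (SE 0.15, adjusted p = 0.862 by limma) where the shared one gave -0.34 (SE 0.11, adjusted p = 0.0956). Hist2h2aa1, read on and past its stem-loop, differed by -0.03 (SE 0.09). The highest H2A value was that of Hist1h2ae, 0.63, which did not pass (SE 0.47, adjusted p = 0.468) and was 0.15 without VND3207 mouse 2, the highest of the 6 mice.

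**Figure D2:**
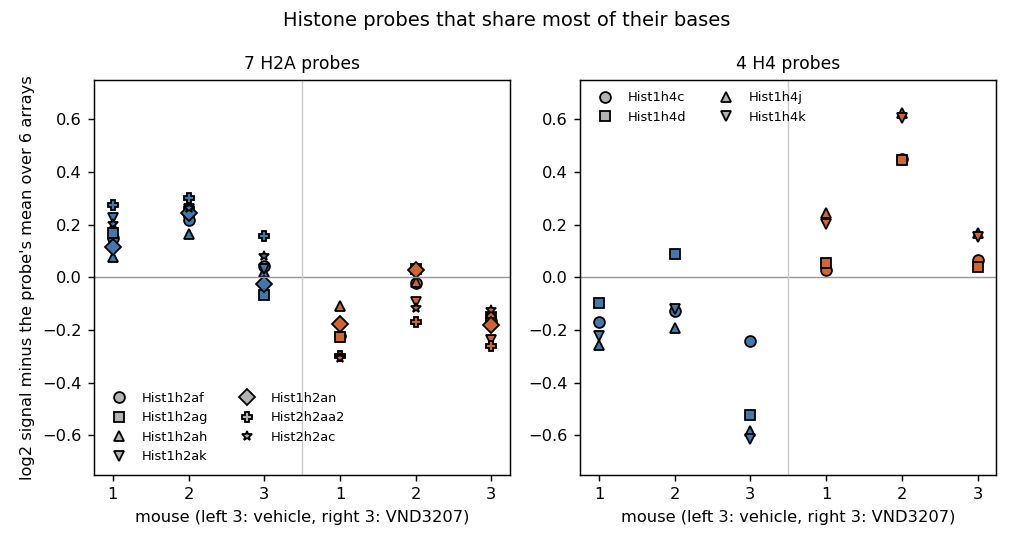
Log2 signal minus the probe's mean over the 6 arrays, in each mouse, for the 7 H2A probes (left) and the 4 H4 probes (right) that share most of their bases; symbols are genes, blue is vehicle and orange VND3207. In vehicle mice 1 and 2 all H2A probes lie above 0, in VND3207 mice 1 and 3 all lie below, and the H4 probes lie above 0 in all VND3207 mice.

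Of the H2B genes, 1 of 10 probes tested was called, and lower. Hist1h2ba, a testis H2B, gave 4.67, 4.26 and 4.30 in the vehicle mice and 3.95, 3.68 and 3.83 in the VND3207 mice. The groups did not overlap, and the difference was -0.59 (SE 0.15, adjusted p = 0.0487 by limma), a 1.51-fold fall. It passed in 6 of 19 alternatives and kept its sign in all 19, from -0.66 to -0.46. Every fit that left out 1 array lost the call, with adjusted p from 0.0830 to 0.151. The probe lies in the coding region and was not compared with the transcripts of other H2B genes. Whether its signal comes from Hist1h2ba alone was not tested.

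Hist1h2bb had the lowest H2B value, -0.66 (SE 0.18, adjusted p = 0.0590 by limma), and -0.05 after the correction for trends. Without VND3207 mouse 1 it passed, at -0.85 (adjusted p = 0.0143). Hist1h2bg had the highest, 0.38 (SE 0.13, adjusted p = 0.125), without overlap between groups, and passed with quantile normalization at 0.72 (adjusted p = 0.0250). Hist1h2bc and Hist1h2bm differed by -0.11 and -0.12 and did not pass. Hist1h2bq was above background on 0 vehicle arrays and 1 VND3207 array, and was not tested. The H2B median was -0.13, and 0.01 with quantile normalization.

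For the linker histones, 0 of 5 probes passed in limma, and 0 had an unadjusted p under 0.05. Hist1h1b, a linker histone of dividing cells, gave 2.32, 2.60 and 2.46 in the vehicle mice and 1.95, 2.14 and 2.31 in the VND3207 mice. These are apart by little, and the difference of -0.33 (SE 0.14) did not pass (adjusted p = 0.193). Hist1h1a differed by -0.37 (SE 0.20, adjusted p = 0.306) and Hist1h1e by 0.36 (SE 0.29, adjusted p = 0.501). Without VND3207 mouse 2 the Hist1h1e difference was 0.060. The testis form Hist1h1t was -0.30 (SE 0.32).

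Of 8 H3 probes 0 passed as well, with 0 at an unadjusted p under 0.05. Hist1h3d gave 5.01, 5.06 and 4.84 in the vehicle mice and 5.08, 5.18 and 5.03 in the VND3207 mice, a difference of 0.13 (SE 0.11, adjusted p = 0.517 by limma). Hist1h3f had the highest value, 0.52 (SE 0.24, adjusted p = 0.230), and passed without VND3207 mouse 3, at 0.76 (adjusted p = 0.0319). Hist1h3a had the lowest, -0.41 (SE 0.19, adjusted p = 0.244). Hist1h3c and Hist2h3c1 differed by 0.02 and 0.18. The groups overlapped for all 8.

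**Figure D3:**
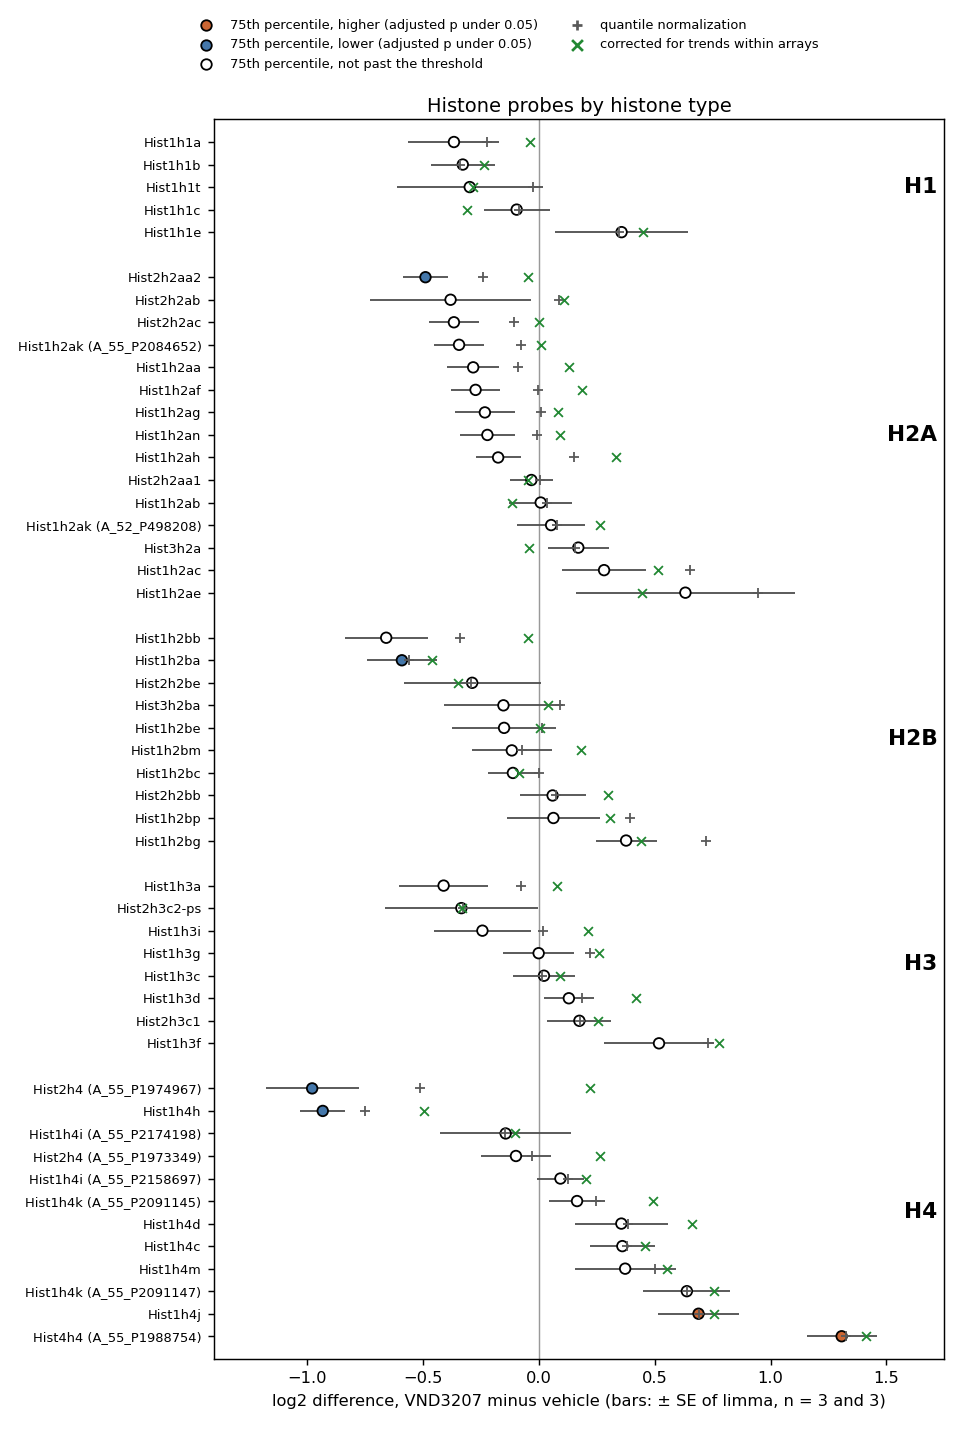
Log2 difference between the VND3207 and vehicle means for each of the 50 histone probes tested, sorted within histone type; circles are the 75th percentile scaling with the SE of limma (n = 3 and 3), plus signs quantile normalization and crosses the correction for trends. Hist4h4 lies to the right and Hist1h4h to the left under all 3, while most H2A circles lie left of 0 and their crosses right of it.

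Type by type, the median differences were -0.30 for H1, -0.22 for H2A, -0.13 for H2B, 0.01 for H3 and 0.26 for H4. H1 was lowest and H4 highest also with quantile normalization (-0.08 and 0.31) and after the correction for trends (-0.23 and 0.48). No test was made between types, whose probes share sequence and arrays. Over all histone probes the median was 0.02 with quantile normalization, against 0.05 over all probes, and 0.16 after the correction, against 0.03. With quantile normalization 2 histone probes were higher and 1 lower, and 2.59% and 8.97% of all probes. After the correction 4 were higher, all of H4, and 1 lower, against 3.07% and 6.17%.

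Brightness bears on these shares, as dim probes carried most of the lower calls over the whole array. Of the 30 histone probes brighter than the 75th percentile, 2 were higher and 2 lower, against 0.662% and 4.57% of all such probes. Their median was -0.10, against 0.01 over all such probes. Among the 20 dimmer ones 0 were higher and 2 lower, against 1.08% and 20.3% of all dimmer probes. The median there was -0.15, against -0.16 over all dimmer probes. The 6 probes with the stem-loop had a median of -0.02 and none passed, with 0 at an unadjusted p under 0.05. The 13 tested probes that begin 500 bases or more into their target had a median of -0.10, and 0 passed, with 1 higher at an unadjusted p under 0.05. This last count is given without the share of all probes.

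Some clustered genes are known to give polyadenylated transcripts outside S phase as well. Of 5 such genes 0 passed, with 0 at an unadjusted p under 0.05 in limma and 1 above 0. Hist1h1c gave -0.10 (SE 0.14), Hist2h2be -0.29 (SE 0.29), and the Hist3 genes Hist3h2a and Hist3h2ba 0.17 (SE 0.13) and -0.15 (SE 0.26). Of the 3 germ line members Hist1h1t, Hist1h2aa and Hist1h2ba, 1 was called lower, against 14.6% of all probes. All 3 lay below 0, while 15140 of all 36098 probes lay above it. Their median was -0.30, with -0.09 under quantile normalization and -0.28 after the correction for trends. Hist1h2aa was -1.92, -1.99 and -1.92 against -2.06, -2.27 and -2.35, a difference of -0.28 (SE 0.11, adjusted p = 0.168), which became 0.13 after the correction for trends.

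Hist1h2aa and Hist1h2ba stand back to back on chromosome 13, and their promoter windows in RefSeq (GRCm38.p6) overlap by 220 bases. Other back-to-back pairs were Hist1h2ae with Hist1h2bg, overlapping by 179 bases and differing by 0.63 and 0.38, and Hist1h2an with Hist1h2bp, overlapping by 239 bases and differing by -0.22 and 0.06. The window before Hist1h2ba, chr13:23934157-23934406 on the minus strand, is shown because the 2 germ line genes share it. Capitals mark CCAAT, the TATA box letters and the octamer on either strand.
Hist1h2ba promoter: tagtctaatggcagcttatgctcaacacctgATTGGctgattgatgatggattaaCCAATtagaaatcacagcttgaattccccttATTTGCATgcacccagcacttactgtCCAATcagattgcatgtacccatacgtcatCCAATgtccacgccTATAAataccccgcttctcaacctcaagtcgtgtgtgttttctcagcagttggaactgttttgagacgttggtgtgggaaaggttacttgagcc

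Promoters were found for 43 of the 49 genes, 44 windows in all, and the 250 bases before the start were searched on both strands. CCAAT was present in 36 of the 44, including all 30 of H1, H2A and H2B, against 33.8% of all 32851 promoters. TATAA was present in 29 of 44, against 22.8%. The octamer ATTTGCAT, known from H2B promoters, was present in 6 of 10 H2B and 7 of 14 H2A windows, against 1.60%. AAACACA, the core of the H1 box, was present in 5 of 6 H1 windows, against 6.25%. CAATCNGGT, which can overlap CCAAT and lies in the element of H4 promoters that the factor HINFP binds, was present in 2 of 8 H4 windows and in 1 window each of H2A, H2B and H3, 5 of 44 in all, against 0.466%. The H2B window is that of Hist1h2ba shown above, where the match overlaps the first CCAAT and is not marked. This match lies in the bases shared with the H2A window, that of Hist1h2aa, so 1 site is counted under both types. The octamer of this pair lies there too and is also counted under both. Windows of back-to-back genes are therefore not separate counts.

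These 2 H4 windows belong to Hist4h4 and Hist1h4h, the genes whose probes moved in opposite directions in every alternative, and are shown for that reason. Capitals mark CAATCNGGT and TATAA on either strand. The Hist4h4 window is chr6:136804432-136804681 on the minus strand, and that of Hist1h4h is chr13:23530794-23531043 on the plus strand, both in GRCm38.p6.
Hist4h4 promoter: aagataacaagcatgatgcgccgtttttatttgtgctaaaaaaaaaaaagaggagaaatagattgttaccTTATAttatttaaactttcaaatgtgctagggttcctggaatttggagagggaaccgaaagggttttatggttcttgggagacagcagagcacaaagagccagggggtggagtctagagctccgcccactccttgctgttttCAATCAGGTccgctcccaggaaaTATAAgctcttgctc
Hist1h4h promoter: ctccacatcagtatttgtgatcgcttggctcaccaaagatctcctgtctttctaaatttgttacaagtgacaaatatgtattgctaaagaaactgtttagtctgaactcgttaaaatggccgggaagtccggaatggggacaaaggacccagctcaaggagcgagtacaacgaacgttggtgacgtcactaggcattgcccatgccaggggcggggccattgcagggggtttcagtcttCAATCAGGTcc
TATAA or its reverse occurs 2 times in the Hist4h4 window and 0 times in that of Hist1h4h. A match is a description of letters and not of binding.

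**Figure D4:**
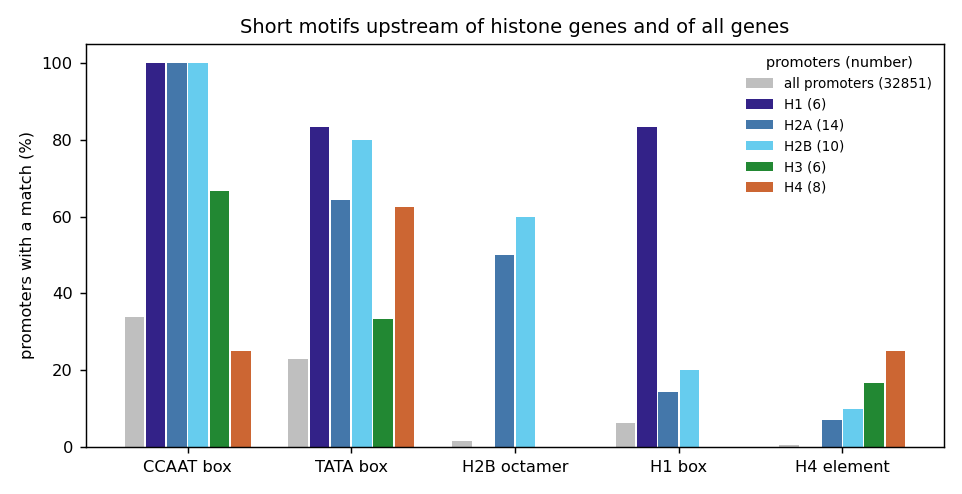
Percent of promoters (vertical axis) that hold each short motif within 250 bases before the start, on either strand, for all RefSeq promoters and for the histone genes by type, with the number of promoters in brackets. CCAAT is in every H1, H2A and H2B window, the octamer in H2A and H2B windows alone among the histone types, and the H4 element in 2 of the 8 H4 windows and in 1 window each of H2A, H2B and H3. Windows of back-to-back genes overlap, so 1 site can be counted under both H2A and H2B, as is the H4 element.

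Genes that make and process histone mRNA were mostly above 0. Each gene was read by its brightest tested probe. Of 26 tested genes for the transcription, 3′ processing and decay of these messages, 0 passed in limma and 21 lay above 0. Above 0 were also 15140 of all 36098 probes, and 6917 of the 13141 brighter than the 75th percentile. The median was 0.14, against -0.06 over all probes and 0.01 over those brighter ones. At an unadjusted p under 0.05 in limma 4 were higher, a count given without the share of all probes. Zfp473, a protein of the U7 particle's processing complex, was at 0.37 (SE 0.14, adjusted p = 0.145) and passed with quantile normalization, at 0.60 (adjusted p = 0.0429), and after the correction for trends, at 0.56 (adjusted p = 0.0483). Slbp, whose product binds the stem-loop, gave 0.07 (SE 0.11, adjusted p = 0.736). Lsm11 of the U7 particle, which cleaves the message, gave 0.25 (SE 0.19) and Casp8ap2, a factor of the histone locus body, 0.13 (SE 0.09). Npat, the coactivator of histone genes, was below the filter. Of 22 histone chaperones 0 passed, with a median of 0.05 and 1 higher at an unadjusted p under 0.05, again without that share.

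Of 28 S phase genes tested 0 passed in limma, with 5 higher and 1 lower at an unadjusted p under 0.05. These counts are given without the share of all probes, so they show no excess. The median was 0.05, against -0.06 over all probes and 0.01 over those brighter than the 75th percentile. Cdk2, a kinase of the cell cycle, was at 0.31 (SE 0.10, adjusted p = 0.104) and passed after the correction for trends, at 0.50 (adjusted p = 0.0343). Mcm2 of the replicative helicase gave 0.39 (SE 0.15, adjusted p = 0.156), the sliding clamp gene Pcna 0.13 (SE 0.10) and Rrm2, of ribonucleotide reductase, 0.18 (SE 0.16). The median deviation of this list ran from -0.06 to 0.09 in the vehicle mice and from 0.00 to 0.08 in the VND3207 mice, which overlap.

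Of 14 replacement histone genes outside the clusters 2 passed, both lower, a share close to the 14.6% of all probes called lower. Both are linker histones. H1foo, the oocyte form, fell by 1.04 (SE 0.14, adjusted p = 0.00588 by limma) and H1fx fell by 0.80 (SE 0.14, adjusted p = 0.0141). After the correction for trends H1foo was at -0.67 (adjusted p = 0.0406) and H1fx at -0.37 (adjusted p = 0.164). H2afx, the variant phosphorylated at DNA breaks, gave 0.13 (SE 0.12), H2afz -0.10 (SE 0.10), H3f3a 0.24 (SE 0.12), H3f3b 0.11 (SE 0.09) and H1f0 -0.05 (SE 0.36), and none of these passed. The median of the list was -0.07.

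Cell type markers differed between the groups in part, and their part in the histone values was not tested. Of 10 enterocyte markers 5 were called lower, against 14.6% of all probes and 4.57% of those brighter than the 75th percentile. The list median deviation was 0.15 to 0.37 in the vehicle mice and -0.30 to -0.10 in the VND3207 mice. The median difference was -0.38, and -0.05 with quantile normalization, where no marker of this list passed (lowest adjusted p = 0.0662 by limma, Fabp1). After the correction for trends the median was 0.01. That median covers members on both sides: after the correction Fabp1 was still lower, at -0.60 (adjusted p = 0.0283), as was Anpep, an aminopeptidase of the brush border, at -0.59 (adjusted p = 0.0261), while the apolipoprotein gene Apoa1 passed as higher, at 0.55 (adjusted p = 0.0314). Of 6 crypt markers 0 passed, with 1 higher at an unadjusted p under 0.05, and the ranges overlapped (-0.15 to -0.00044 and -0.12 to 0.16). B cell markers had 1 of 5 lower (median 0.08), T cell markers 0 of 5 (median 0.24, 1 higher at an unadjusted p under 0.05) and erythroid and myeloid markers 1 of 5 lower (median -0.85). The crypt and T cell counts at an unadjusted p are given without the share of all probes. Of 6 smooth muscle markers 0 passed, and 0 at an unadjusted p under 0.05, with a median of -0.63. Their deviation ran from -1.85 to 0.45 among the VND3207 mice alone. VND3207 mouse 3 was the lowest of the 6 mice for every marker of this list. Actg2, for example, gave 6.06, 5.70 and 6.12 in the vehicle mice and 5.98, 5.86 and 3.46 in VND3207 mice 1 to 3.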

How the data were processed

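Jejunum RNA of 6 mice, 3 per group by the labels, was read on 1-colour arrays with probes of 60 bases. Per the submitters' processing notes, the deposited intensity values are output of Agilent Feature Extraction 10.7.1.1. Per the file headers, its processed signal is background-subtracted, with no scaling from array to array. A deposited table of log2 values has a median of 6.05 in all columns. How the authors made it is not stated, and it was used as an alternative. Columns without a sample numbered 0.

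Signals were turned to log2, the array's 75th percentile over 59305 non-control spots was subtracted, outlier spots were left out and spots of a probe averaged. Probes well above background on at least 3 of 6 arrays (36098 of 55681) were fitted with limma 3.58.1 in R 4.3.3 (lmFit, eBayes, 2-sided, group only), with Benjamini-Hochberg adjustment and a threshold of 0.05; the script was tested on simulated data. For a probe below background in 1 group, the fold against the background limit uses the other group's mean. It is set against the higher of the signal and the lowest signal well above background, per array. Probe positions are in mm9, per the file headers. Symbols of 48 of 49 genes were matched to RefSeq, which supplied the promoters. The number of arrays limits the precision.

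The members and the lists were chosen with earlier results of these data known. Histone probes named are those past the threshold, the 3 brightest genes and the extremes of each type, the Hist3 and Hist4 genes, and the germ line and polyadenylated lists. Of other genes, up to 4 members past the threshold of each list and a few set genes are named. Probes that share sequence, carry the stem-loop, read the same gene or lie back to back, with H2afj, Zfp473, Cdk2, Fabp1, Fabp2, Anpep and Apoa1, were named after their values were seen. Alternatives were quantile normalization, normexp with an offset of 50, the deposited table, 3 other filters, 2 ways to reduce probes to genes, 2 other variance models, a replicate block, each array left out, outlier spots kept, other thresholds, and a correction of each array for smooth trends with spot row, column, brightness and GC content (mgcv 1.9.3). Where a true difference follows such a trend, this correction takes part of it away.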

Additional observations from a re-analysis of the deposited data

How the results depend on the processing

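The 2 histone probes called higher became 4 with normexp, 4 after the correction for trends and 1 at an adjusted p under 0.01, and 1 to 2 when 1 array was left out. The 4 called lower became 1 with quantile normalization, 1 with the deposited table, 2 with normexp, 2 when probes had to be well above background on all 6 arrays, 1 after the correction for trends, 7 at an adjusted p under 0.1, 1 at an adjusted p under 0.01, and 1 to 3 when 1 array was left out. With the replicate number as a block, 2 were higher and 2 lower, with Hist2h2aa2 and Hist1h2ba losing their calls. Same-numbered mice did not deviate together (r over probes of 0.13, -0.11 and -0.05), within the range of differently numbered mice (-0.26 to 0.30). These values cannot show whether the numbers pair the mice. The median difference of -0.10 became 0.017 with quantile normalization, 0.017 with the deposited table and 0.16 after the correction, and ran from -0.0967 to -0.0062 when 1 array was left out, the latter without vehicle mouse 1. Hist2h4, on its dim probe, reversed to 0.22 after the correction. The cause of these changes was not tested. In the other alternatives (no filter, a brightness filter, the brightest probe or the mean per gene, trend and robust variance, array weights, outlier spots kept) both counts stayed within 1.5 times their main value. Hist4h4 and Hist1h4h passed in every alternative run at the 0.05 threshold.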

Other observations

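The array also carried histone probes whose names fall outside the pattern used here, and these were looked at after their values were seen. A probe described as Hist1h4d but named by a transcript only gave log2 signals of 6.22, 6.52 and 6.14 in the vehicle mice and 6.56, 6.72 and 6.58 in the VND3207 mice, without overlap. Its difference of 0.32 (SE 0.13) did not pass in limma (adjusted p = 0.187), and it passed after the correction for trends at 0.75 (adjusted p = 0.0168). A probe described as H2A type 1-H differed by -0.24 (SE 0.11, adjusted p = 0.222 by limma) and by 0.26 after the correction. A probe described as Hist1h4i differed by 0.10 (SE 0.10, adjusted p = 0.621). These H4 and H2A values lie on the same side of 0 as those of the shared H4 and H2A groups before the correction. The H2A type 1-H probe matches the Hist1h2ag probe of the shared group at 38 of 46 positions. The Hist1h4d probe matches the second Hist1h4k probe at 32 of 34. With such shared sequence, and chosen after their values were seen, they are not separate readings and give no support.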
